A study of Macaca fascicularis with 6 samples.

Results

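Capillary endothelial cells of the lung were examined in 6 single-cell libraries of cynomolgus monkeys (Macaca fascicularis), and 716 of the 25388 cells that passed the quality filters were members. The members were chosen by their own counts. A cell had to hold more than 500 and fewer than 5000 genes and at most 25% of its UMIs (unique molecular identifiers, each standing for 1 captured RNA molecule) in 13 mitochondrial genes. It had to contain at least 1 UMI of 2 or more of the endothelial genes PECAM1, CLDN5, CDH5, EGFL7, ESAM and RAMP2, and of 2 or more of the capillary genes HPGD, ADGRL2, ADGRF5, RAMP3, SLC6A4 and STC2. Cells with any UMI of PTPRC, AGER, PROX1 or MMRN1, or with 50 or more UMIs of ITLN1, were left out, which removed leukocytes, alveolar type 1 cells, lymphatic endothelium and mesothelium.

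The lungs came from male monkeys of 3 to 5 years, 3 in the control group (libraries 1, 2 and 3) and 3 in the asthma group (libraries 8, 10 and 11), with 1 library per monkey. The asthma monkeys had been sensitised under the skin with Ascaris suum (A. suum, a roundworm) antigen in adjuvant and later challenged through the nose, and the controls received saline in place of antigen. Antigen and adjuvant came together and only in the asthma group, so their effects cannot be told apart. Lung pieces were digested with enzymes, red cells were lysed and dead cells were removed before droplet capture, so each share below is a share of the cells that survived this preparation. The libraries held 40556102, 33210436 and 32240293 UMIs in the controls and 41184329, 41489879 and 29014556 UMIs in asthma libraries 8, 10 and 11.

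Alveolar capillaries line the air sacs and carry out gas exchange. In mammalian lungs they are built from at least a pair of endothelial states. Aerocytes are large, thin cells that express carbonic anhydrase CA4, the endothelin receptor EDNRB and the prostaglandin-degrading enzyme HPGD, while general capillary cells express genes such as FCN3, IL7R and EDN1 and serve as progenitors. Capillary endothelium is also the main site where angiotensin-converting enzyme (ACE) acts on blood peptides, and it takes up prostaglandins and serotonin from the circulation. Larger vessels are marked instead by VWF, CPE, SELP, ACKR1 and arterial genes such as GJA5 and DKK2.

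Detection of the genes used in the choice was set in part by the choice itself and is given as a description. Of these genes, EGFL7 was detected in 98.3% of members, PECAM1 in 94.4%, RAMP2 in 95.5%, RAMP3 in 91.3%, ADGRL2 in 88.7% and HPGD in 88.3%. Most members were asthma cells, and the groups differed. HPGD was detected in 57.1% of control and 90.9% of asthma members, RAMP3 in 71.4% and 93.0%, and ADGRL2 in 94.6% and 88.2%. CLDN5, a tight-junction gene and a usual endothelial marker, was detected in only 3.07% of them and was low in all libraries, at 13.1, 0 and 10.0 CPM in the controls and 6.59, 15.2 and 8.22 CPM in the asthma libraries (CPM, UMIs of the gene per 1000000 UMIs of the library's summed cells). The serotonin transporter SLC6A4 was found in 19.3% and STC2 in 15.8%. EPAS1, a hypoxia-responsive transcription factor abundant in lung capillaries that played no part in the choice, was detected in 98.9% of members. Its level was 1840.2, 2748 and 3306 CPM in controls 1, 2 and 3 and 8168, 10822 and 7630.2 CPM in asthma libraries 8, 10 and 11, against a mean of 105 CPM in all other cells. Every asthma library thus lay above every control library, as it did for 23.8% of the genes tested below, and the lowest control was still far above the other cells. Of the 8 lymphatic markers, PROX1 and MMRN1 were at 0 by the choice, CCL21 was at 0 as well, and the summed list was at 39.4, 108 and 50.2 CPM in the controls and 142, 203 and 91.6 CPM in asthma. Nearly all of it was FLT4, a VEGF-C receptor that was found in 15.8% to 45.2% of the members of a library.

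The control and asthma members differed in make-up. Near the limit of the choice, 22 control and 69 asthma members held exactly 2 of the 6 capillary genes, while 34 control and 591 asthma members held 3 or more. Control members with exactly 2 had a median of 9430.0 UMIs and 1237 CPM of EPAS1, and those with 3 or more had 1900 UMIs and 6064 CPM. In the asthma group the same figures were 2289 UMIs and 2705 CPM, and 2888 UMIs and 9818 CPM. Just outside, endothelial cells with exactly 1 capillary gene numbered 36 in the controls and 63 in asthma, with 963 and 1808 CPM of EPAS1.

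Members were therefore also split by further genes. The list of endothelial identity genes used for this includes the endothelial genes of the choice, and the other lists hold none of its genes. Cells with more UMIs of alveolar type 2, airway and fibroblast markers than of endothelial identity genes numbered 4, 1 and 1 in controls 1, 2 and 3 and 4, 3 and 16 in asthma libraries 8, 10 and 11. Among the rest, cells with at least 2 of the 9 larger-vessel genes VWF, ACKR1, CPE, SELP, PLVAP, GJA5, BMX, DKK2 and HEY1 numbered 8, 5 and 11 in the controls (38.1%, 31.3% and 57.9% of members) and 41, 57 and 101 in asthma (22.5%, 28.6% and 36.2%). What remained is called capillary-only cells: 9, 10 and 7 in the controls and 137, 139 and 162 in asthma. These made up 42.9%, 62.5% and 36.8% of control members and 75.3%, 69.8% and 58.1% of asthma members, so control 2 lay inside the range of the asthma libraries and controls 1 and 3 below it.

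**Figure D1:**
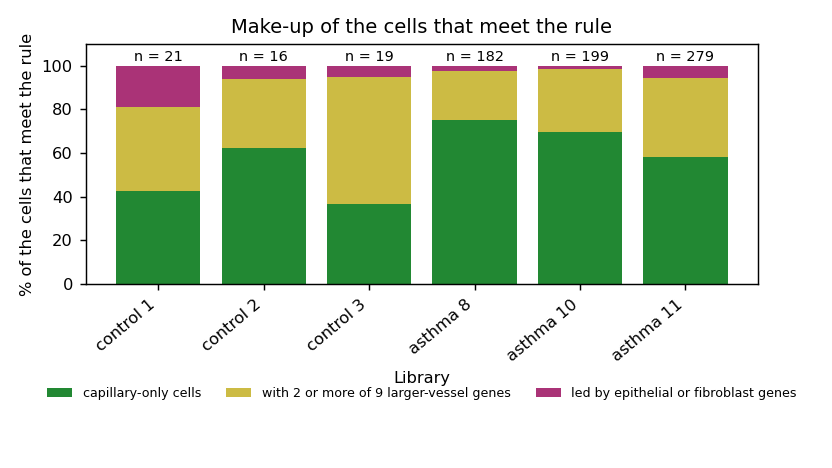
Bars show, for each library, the percentage of members that were capillary-only cells, that held 2 or more of 9 larger-vessel genes, or that were led by epithelial or fibroblast genes; n is the number of members. The capillary-only part ranged from 36.8% to 62.5% in the controls and from 58.1% to 75.3% in asthma.

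Markers of other cell types reached high sums over all members in single control libraries, and the reason was not tested. Over all members, the 9 measured alveolar type 2 markers summed to 127268 CPM in control 1. SFTPC (surfactant protein C) alone reached 111640.0, 154 and 10.0 CPM in controls 1, 2 and 3. In asthma members its mean was 6818 CPM, above controls 2 and 3, and it was detected in 84.6% of members of library 11. The 13 airway markers summed to 78168 CPM in control 3, led by SCGB1A1 (the club cell secretory protein), and the 14 fibroblast markers to 30462 CPM in control 2. Among capillary-only cells the alveolar type 2 sums were 306, 403 and 100.1 CPM in the controls and 153, 148 and 977 CPM in asthma, and the airway sums did not exceed 401 CPM in any library. The capillary-only set was defined after the data had been seen. It is used below as an alternative to all members, and its calls are counted with the same thresholds but printed without p-values. Levels of the 9 larger-vessel genes and of the epithelial and fibroblast markers in it were fixed in part by the way it was defined, and they support nothing. The endothelial identity genes entered its definition as well, through the comparison with those markers.

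Capillary endothelial cells took a larger share of the recovered cells in asthma. Members made up 0.466%, 0.456% and 0.467% of cells in controls 1, 2 and 3 (21, 16 and 19 cells) and 4.23%, 4.22% and 6.52% in asthma libraries 8, 10 and 11 (182, 199 and 279 cells). The Wilson 95% intervals, which cover counting error only, reached at most 0.739% in the controls and began at 3.67% or above in asthma. The group means were 0.463% ± 0.00628 and 4.99% ± 1.33 (SD, n = 3 each), a difference of 4.53 percentage points. The 3 controls were almost equal, asthma library 11 was the highest, and the groups did not overlap (exact permutation test, two-sided, p = 0.1, which is as small as 3 against 3 libraries allow).

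The members were also a larger part of the endothelium. Of all cells with 2 or more endothelial genes and the same exclusions, members were 21 of 53, 16 of 32 and 19 of 99 in the controls and 182 of 217, 199 of 231 and 279 of 356 in asthma. The shares were 39.6%, 50% and 19.2% against 83.9%, 86.1% and 78.4%, with means of 36.3% ± 15.7 and 82.8% ± 4.0 (SD, n = 3 each). This difference of 46.5 points was larger than the spread between libraries, and no control reached the lowest asthma library (exact permutation test, p = 0.1). Among cells without any UMI of PTPRC, the pan-leukocyte gene, members made up 3.12% ± 0.859 in the controls and 18.6% ± 0.240 in asthma (exact permutation test, p = 0.1), so the direction was the same with leukocytes out of the denominator.

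**Figure D2:**
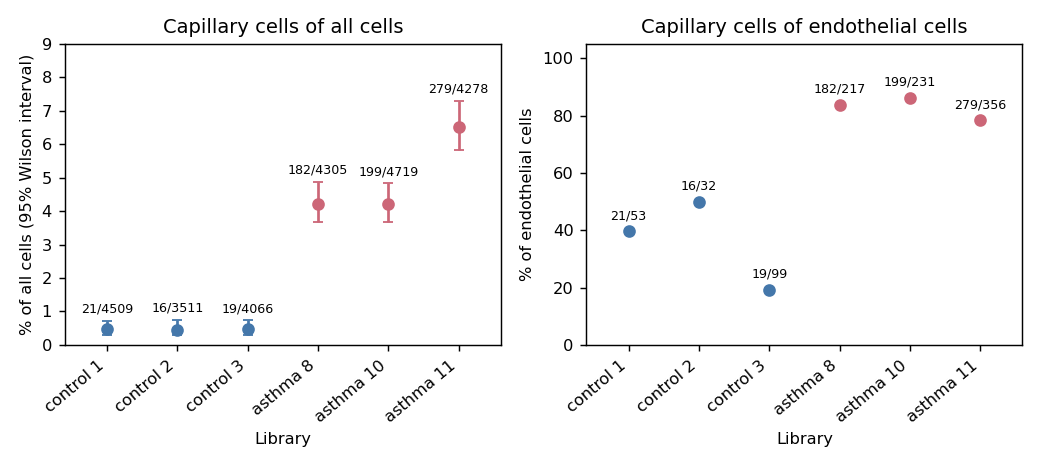
Points show 1 library each, with the numbers of cells behind them; the left panel gives members as a percentage of all cells with 95% Wilson intervals, and the right panel as a percentage of endothelial cells. All 3 asthma libraries lie above all 3 controls in both panels.

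As a rough measure of free RNA and doublets together, T cells (cells with CD3E and PTPRC) that met both detection conditions were counted: 26 of 6603, or 0.394%, and 0.413%, 0.0781% and 0.190% in the controls and 0.634%, 0.377% and 0.782% in asthma. This rate is a share of T cells, whereas the share of members is one of all cells. The median depth was 3841 UMIs in T cells and 2839.5 UMIs in members. The control share of members thus lay near this background rate in control 1 and above it in controls 2 and 3, and each asthma share was more than 5 times the rate of its own library, although members additionally lacked PTPRC. With capillary-only cells alone, the shares were 0.219% ± 0.0587 in the controls and 3.30% ± 0.434 in asthma. The lowest difference came when every cell with any UMI of 14 marker genes of other types was left out (0.0476% against 0.663%), and the asthma libraries stayed above the controls there too. Of 34996 distinct deposited barcodes 137 occurred in 2 or more libraries, and 0 barcodes were members in more than 1.

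Depth was similar over all members and unequal in the purer set. The median UMIs per member were 4062, 2409 and 2673 in the controls and 2912.5, 3365 and 2476 in asthma (exact permutation test, p = 0.9). For capillary-only cells they were 1584, 1953 and 1200.0 against 2594, 3287 and 1937.5, where control 2 and asthma library 11 overlapped. The summed control members gave 152159, 64770.0 and 99516 UMIs, and the summed control capillary-only cells only 16315, 19853 and 9986 UMIs, against 375458 or more in each asthma library. In these 3 small control sums 1 UMI is worth 50 CPM or more.

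The gene profile of the members was described against all other cells, with no test because the cells were chosen on their genes. Among genes outside the choice with at least 50 CPM in members, the 15 with the largest ratio were ACE, TNFSF10, EPAS1, FCN3, SCGB1A1, VWF, RGS5, KDR, FLT1, CA4, EDNRB, ACVRL1, BPIFB1, FOXF1 and PCDH17. SCGB1A1 and BPIFB1 are airway secretory genes. SCGB1A1 exceeded other cells in 1 of 6 libraries (control 3) and BPIFB1 in 2, whereas each of the others did so in 6 of 6. ACE, which converts angiotensin I and degrades bradykinin, led the list at 729.5, 2347 and 281 CPM in the controls and 2770.3, 3164 and 1163 CPM in the asthma libraries, against 6.88 CPM elsewhere. In capillary-only cells ACE was 6313, 7606 and 2303 CPM in the controls and 4056, 4428 and 2264 CPM in the asthma libraries; the lowest control and the lowest asthma library were almost equal, and the groups overlapped. EPAS1, which separated the groups over all members, was at 7478, 6196 and 9814 CPM in the controls and 9161, 12114 and 8744 CPM in the asthma libraries in capillary-only cells, where the groups overlapped. TNFSF10 (the death ligand TRAIL) stood at 1295, 2779 and 1326 CPM in the controls and 3749, 3501 and 3612 CPM in the asthma libraries and at 44.0 CPM in other cells.

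Against non-capillary endothelial cells (cells with 2 or more larger-vessel genes and at most 1 capillary gene), the 10 genes with the largest ratio over all members were of epithelial or fibroblast origin (SCGB1A1, PGC, SFTPC, SCGB3A1, COL1A1, WFDC2, VMO1, SFTPD, BPIFB1 and GSTA5). The 10 lowest included the arterial genes DKK2, BMX and HEY2, the Wnt antagonists SOST and SFRP4, coagulation factor F5 and IGFBP3, which binds insulin-like growth factors, beside DIPK1C, CCL26 and TNNI2. DKK2 and BMX were among the 9 larger-vessel genes that selected the non-capillary cells, so their place here follows from that selection. IGFBP3 was at a mean of 233 CPM in members and 1733 CPM in non-capillary endothelial cells.

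In the capillary-only cells of the asthma group, where cells were many, the leading 20 genes over other cells added SULT1C4, PRX, TBX3, WFDC1, VIPR1, BTBD3, CSGALNACT1, FRZB and APOD to that list and no longer held an airway gene. Mean levels there were 10006 CPM for EPAS1, 4685 for FCN3, 4157 for TNFSF10, 3582 for ACE, 1380 for ACVRL1 (a BMP receptor) and 1200 for TBX3 (a T-box transcription factor). Over the non-capillary endothelial cells of the same libraries, the leading genes were RGCC, CA4, KDR, TBX2, TPPP3, SULT1C4, RCSD1, HOPX, APOD and EDNRB. RGCC, a cell cycle regulator, was at 1145 against 6.07 CPM, KDR (the main VEGF receptor) at 921 against 4.99 CPM and CA4 at 901 against 3.57 CPM. FCN3, a lectin of the complement pathway, did not separate them, at 4685 against 4907 CPM. VIPR1, the receptor for vasoactive intestinal peptide, was at 665 against 198 CPM.

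**Figure D3:**
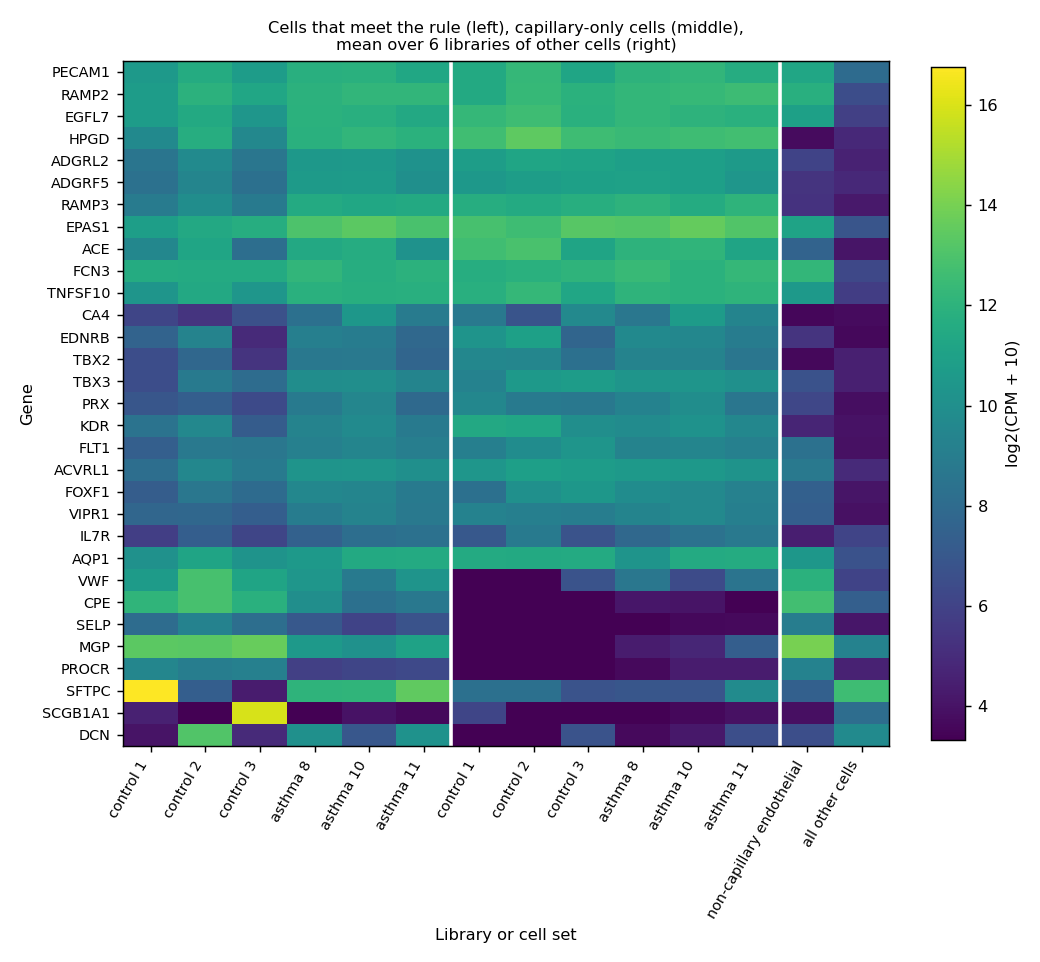
Colour gives log2(CPM + 10) of named genes in all members (left block) and capillary-only cells (middle block) of each library, and as means over libraries in non-capillary endothelial cells and all other cells (right block). SFTPC is high in control 1, SCGB1A1 in control 3 and DCN in control 2 on the left, and PROCR is near 0 in the middle block, as are CPE and SELP, which helped define it.

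Some aerocyte and some general capillary genes were present, and others of both lists were absent or rare. In capillary-only cells of all libraries, 4 of 17 aerocyte genes (SOSTDC1, CHRM2, IL1RL1 and CYP3A5) were at 0. Of 17 general capillary genes 1, BTNL9, was at 0 there. The cells were not divided into a pair of named types here. After every asthma cell had been thinned to 1500 UMIs, leaving 108, 122 and 106 capillary-only cells, FCN3 was detected in 99.1%, 99.2% and 92.5% of them in libraries 8, 10 and 11 (98.5%, 100% and 94.4% unthinned). EDNRB was found in 57.4%, 60.7% and 35.8% (62.0%, 67.6% and 43.8% unthinned) and CA4 in 36.1%, 77.9% and 56.6% (51.1%, 86.3% and 61.1% unthinned). The general capillary gene CD36 was found in only 8.33%, 6.56% and 10.4% and APLNR in 0%, 0% and 1.89% of the thinned cells. In thinned T cells of the asthma libraries FCN3 was found in at most 2.58%, EDNRB in at most 0.323% and CA4 in at most 0.485% of cells of a library. CA4 was thus highest in library 10 and EDNRB lowest in library 11.

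Pairs of these genes were compared cell by cell, and they did not divide the cells in 1 way. EDN1 and EDNRB, the endothelin ligand and receptor, were rarely found in the same cell. Among thinned capillary-only cells with EDNRB, EDN1 was detected in 0 of 62, 2 of 74 and 1 of 38 cells of libraries 8, 10 and 11. Among those without EDNRB it was detected in 20 of 46, 10 of 48 and 13 of 68. VWF was divided in the same way, at 3.23%, 2.70% and 5.26% of cells with EDNRB and 52.2%, 14.6% and 35.3% of cells without it. IL7R, by contrast, was at least as frequent with EDNRB, at 32.3%, 31.1% and 71.1% of cells with it and 26.1%, 25% and 27.9% of cells without it. CA4, the other aerocyte gene, was no guide to EDN1 in libraries 10 and 11, with 10.3%, 10.53% and 13.3% of CA4 cells and 23.2%, 7.41% and 13.0% of other cells holding it. Thinned T cells held EDN1 in at most 0.393% and VWF in at most 1.11% of cells of a library. These shares describe cells of 3 libraries, and cells with 2 larger-vessel genes, VWF among them, had been removed from this set, so the VWF shares were limited by that removal.

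Gene expression of members was then compared between asthma and control on counts summed per library, with edgeR's quasi-likelihood test and Benjamini-Hochberg adjustment over 5607 genes, leaving out the genes of the choice. Calls required an adjusted p under 0.05 together with a log2 fold change beyond 0.25 in either direction. Of these genes 11 were higher in asthma (0.196%) and 35 were lower (0.624%), 46 in all (0.82%). For all 46, the asthma libraries lay entirely on one side of the controls. That was true of 23.8% of all genes tested in the upward direction and 5.46% in the downward direction.

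Of the 35 genes lower in asthma, CPE and SELP were among the 9 larger-vessel genes that define non-capillary and capillary-only cells. The other 33 were all higher in non-capillary endothelial cells than in capillary-only cells, 31 of them more than 2-fold. Of all 5607 genes tested 35.6% were higher there and 8.85% more than 2-fold. CPE, a carboxypeptidase of the larger-vessel list, stood at 4443, 7334 and 3738 CPM in controls 1, 2 and 3 and 977, 301 and 401 CPM in asthma libraries 8, 10 and 11, with no overlap (log2 fold change -3.50 ± 0.50, SE, edgeR adjusted p = 0.0186). PROCR, the receptor that presents protein C for activation, was at 716, 509 and 573 CPM in controls 1, 2 and 3 and 49.4, 59.4 and 68.1 CPM in asthma libraries 8, 10 and 11 (log2 fold change -3.68 ± 0.32, edgeR adjusted p = 0.00278), and non-capillary endothelial cells held 623 CPM. RSPO3, a secreted amplifier of Wnt signalling, was at 329, 309 and 342 CPM in controls 1, 2 and 3 and 34.6, 8.29 and 21.1 CPM in asthma libraries 8, 10 and 11 (log2 fold change -4.27 ± 0.41, edgeR adjusted p = 0.0033) and at 0 in every capillary-only library.

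The other lower genes among the 10 with the largest change were PDZK1IP1, MPZL2, the quinone reductase NQO1, the transcription factor CREB3L1, the collagen VIII chain COL8A1, the glutathione transferase MGST1 and the protease cathepsin C (CTSC). Their log2 fold changes ran from -4.56 to -3.19. PDZK1IP1, CREB3L1 and MGST1 did not enter the fit without cells led by epithelial or fibroblast genes. MGST1 was at a mean of 87.9 CPM in members and only 4.76 CPM in non-capillary endothelial cells. MGP, matrix Gla protein, was at 10620.5, 10359.7 and 12872 CPM in the controls and 1519, 1108 and 2151 CPM in the asthma libraries (log2 fold change -3.14 ± 0.38, edgeR adjusted p = 0.0133), and non-capillary endothelial cells held 16675 CPM. Of the 35, only 4 had enough counts in capillary-only cells to be fitted there (CRIM1, IL1R1, CD47 and PABPC1), and 2 of these (IL1R1 and PABPC1) kept a negative sign. The share of members with 2 or more larger-vessel genes was higher in controls 1 and 3 than in any asthma library, and its part in these differences was not tested.

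None of the 11 genes higher in asthma was higher in non-capillary endothelial cells than in capillary-only cells. NTRK2, the receptor tyrosine kinase TrkB, stood at 19.7, 46.3 and 30.1 CPM in controls 1, 2 and 3 and 173, 126 and 183 CPM in asthma libraries 8, 10 and 11 (log2 fold change 2.13 ± 0.37, edgeR adjusted p = 0.0338). STK4, a kinase of the Hippo pathway, was at 65.7, 139 and 121 CPM in controls 1, 2 and 3 and 436, 379.8 and 376 CPM in asthma libraries 8, 10 and 11 (log2 fold change 1.64 ± 0.29, edgeR adjusted p = 0.0338). KAT6A, a histone acetyltransferase, was at 52.6, 61.8 and 50.2 CPM in controls 1, 2 and 3 and 212, 236 and 211 CPM in asthma libraries 8, 10 and 11 (log2 fold change 1.69 ± 0.27, edgeR adjusted p = 0.0268). The remaining named genes were the proteoglycan SDC3, the WASH complex subunit WASHC4, the protein kinase C isoform PRKCE, the transcription factor ZBTB16, the small heat shock protein HSPB8, C21orf91 and SLC2A14, with log2 fold changes between 1.79 and 2.40. SLC2A14 is a near copy of SLC2A3, and reads of this pair may have been split in counting. The last of the 11 is listed without a symbol, as ENSMFAG00000037524 (log2 fold change 2.53).

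All 11 kept a positive log2 fold change when capillary-only cells were compared, where 63.8% of all genes fitted were positive, and none passed the thresholds there. For 5 of them the value was less than 0.5 of that in all members: STK4 (0.53), C21orf91 (0.60), HSPB8 (0.75), PRKCE (0.82) and ZBTB16 (0.91). In those cells KAT6A was at 61.3, 101 and 100.1 CPM in the controls and 254, 265 and 264 CPM in the asthma libraries (log2 fold change 1.85 ± 0.59). The groups did not overlap, as in 11.7% of all genes fitted there in this direction, and the control values rest on very few UMIs. For STK4 the values in those cells were 184, 353 and 501 CPM in the controls and 435, 351 and 392 CPM in the asthma libraries, and the groups overlapped.

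**Figure D4:**
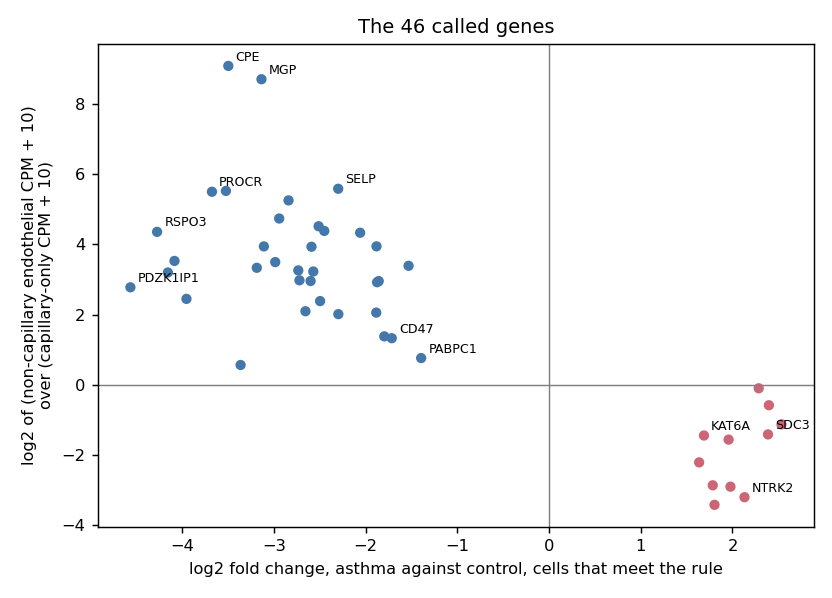
Each point is 1 of the 46 called genes; the x axis gives the log2 fold change of asthma against control in all members, and the y axis the log2 ratio of non-capillary endothelial to capillary-only cells, each CPM + 10. All 35 lower genes lie above 0 on the y axis, CPE and SELP by the way the cells were chosen, and all 11 higher genes lie below it.

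These counts depended on single libraries. With 1 library left out, the genes called higher and lower were 1 and 7 without control 1, 17 and 85 without control 2, 0 and 12 without control 3, 1 and 9 without asthma library 8, 0 and 2 without library 10, and 0 and 8 without library 11. Leaving out the cells led by epithelial or fibroblast genes gave 23 and 88, among them 40 of the 46.

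The lists of capillary genes were described by their counts and medians. Of 17 aerocyte genes in the files, 8 were tested in members and 0 were called, with a median log2 fold change of 1.06 against 0.03 over all genes tested. In 4 of the 8 every asthma library lay above every control, a state that 23.8% of all genes shared. CA4 was at 59.1, 30.9 and 90.4 CPM in the controls and 306, 1367 and 465 CPM in the asthma libraries (log2 fold change 3.18 ± 0.65, edgeR adjusted p = 0.0649), a wide separation that did not pass. In capillary-only cells it was 429, 101 and 801 CPM in the controls and 394, 1657 and 653 CPM in the asthma libraries, with overlap and asthma library 10 alone far above the rest. TBX3 was at 78.9, 463 and 261 CPM in the controls and 967, 978 and 651 CPM in the asthma libraries and EDNRB at 184, 633 and 20.1 CPM in the controls and 545, 499.9 and 222 CPM in the asthma libraries, the latter with overlap. The aerocyte list as a whole had a median of 0.16 in capillary-only cells, against 0.28 for all 3735 genes fitted there.

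Of the endothelial identity genes 24 were tested and 0 called, with a median of 0.50 in members and 0.36 over 23 genes in capillary-only cells. Of 17 general capillary genes, 13 were tested and 0 called, with a median log2 fold change of 0.96. FCN3 was at 3135, 2979.8 and 2974 CPM in the controls and 4562, 3372 and 4049 CPM in the asthma libraries (log2 fold change 0.08 ± 0.30) and AQP1, a water channel, at 1124, 2285 and 1176 CPM in the controls and 1486, 2820.1 and 2973 CPM in the asthma libraries (log2 fold change 0.41 ± 0.37). IL7R, the receptor of interleukin-7 and a general capillary marker, was at 46, 154 and 60.3 CPM in the controls and 168, 280.4 and 311 CPM in the asthma libraries (log2 fold change 1.41 ± 0.41, edgeR adjusted p = 0.134). Of the 12 larger-vessel genes tested, 0 were higher and 2 were lower (CPE and SELP), with a median of -1.44. Of all genes tested 0.196% were higher and 0.624% were lower. SELP (P-selectin, which captures leukocytes and is stored with VWF) was at 256, 618 and 281 CPM in the controls and 122, 55.2 and 98.7 CPM in the asthma libraries (log2 fold change -2.30 ± 0.37, edgeR adjusted p = 0.0268). VWF was at 1636, 7473 and 2291 CPM in the controls and 1346, 464 and 1214 CPM in the asthma libraries and, despite groups that did not overlap, did not pass (edgeR adjusted p = 0.117).

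Genes for vasoactive peptides and their receptors gave no call. All 9 tested had a positive log2 fold change (median 0.86), as did 52.1% of all genes tested, and in 5 of the 9 every asthma library was above every control, against 23.8% of all genes. ECE1, which cleaves endothelin to its active form, was at 237, 278 and 583 CPM in the controls and 842, 997 and 788 CPM in the asthma libraries and VIPR1 at 210.3, 216 and 151 CPM in the controls and 494, 648 and 430.0 CPM in the asthma libraries. RAMP3, a partner of the adrenomedullin receptor used in the choice, was at 479.8, 957 and 442 CPM in the controls and 2976, 2555 and 2821 CPM in the asthma libraries, and in capillary-only cells at 3309.8, 2921 and 3405 CPM in the controls and 4149, 3115 and 4293 CPM in the asthma libraries, where the groups overlapped. ACE had no separation, with an edgeR adjusted p of 0.556. In capillary-only cells the median over 7 genes of this list was 0.16, below that of all genes, and 1 gene, EDN1, was called, with 0 UMIs in the controls.

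Growth factor and morphogen receptors likewise gave no call. Among 7 VEGF pathway genes tested the median was 0.63 in members. In capillary-only cells it was -0.46 over 5 genes with 1 positive, where 63.8% of all genes fitted were positive. The summed list, led by KDR, was there at 4658, 4533 and 4306 CPM in the controls. In the asthma libraries it was at 2737, 2749 and 2019 CPM, with no overlap. KDR was at 335, 757 and 141 CPM in the controls and 636, 853 and 455 CPM in the asthma libraries in members (log2 fold change 0.42 ± 0.49) and at 2758, 2468 and 1001 CPM in the controls and 873, 1159 and 729.8 CPM in the asthma libraries in capillary-only cells (log2 fold change -0.98 ± 0.33). It was thus higher in 2 of 3 controls than in any asthma library in the purer set and not so in all members. FLT1, a decoy-like VEGF receptor, was at 158, 417 and 392 CPM in the controls and 560.0, 681 and 527 CPM in the asthma libraries in members (log2 fold change 0.63 ± 0.34). In capillary-only cells it was at 552, 907 and 1302 CPM in the controls and 627, 686 and 570 CPM in the asthma libraries, with overlap. Of 19 BMP and TGF-beta genes tested 0 were called (median 0.34). ACVRL1 was at 283, 726 and 462 CPM in the controls and 1247, 1288 and 1017 CPM in the asthma libraries (edgeR adjusted p = 0.159) in members and at 1348, 1914 and 1702 CPM in the controls and 1516, 1435 and 1188 CPM in the asthma libraries in capillary-only cells, with overlap. The BMP target ID1 was at 1419.6, 1049.9 and 894 CPM in the controls and 1158, 1352 and 861 CPM in the asthma libraries. Of 10 Notch genes 0 were called (median 0.31). Among them the tip-cell ligand DLL4 was at 13.1, 61.8 and 50.2 CPM in the controls and 156, 184 and 169 CPM in the asthma libraries (log2 fold change 1.91 ± 0.39, edgeR adjusted p = 0.0649).

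Inflammatory gene groups gave 1 call. Of 14 adhesion and chemokine genes tested only SELP passed, against 0.82% of all genes tested, and the median was -0.21. SELP is the gene already counted in the larger-vessel list. ICAM1 was at 118, 185 and 322 CPM in the controls and 303, 229 and 176 CPM in the asthma libraries and the alarmin IL33 at 138, 139 and 382 CPM in the controls and 110.4, 213 and 256 CPM in the asthma libraries, both with overlap. IL13RA1, a subunit of the IL-4 and IL-13 receptors, was at 223, 262 and 281 CPM in the controls and 165, 174 and 230.3 CPM in the asthma libraries. Of 20 interferon-stimulated genes 0 passed, with a median of 0.50 and 7 of 20 in which every asthma library was above every control, against 23.8% of all genes. IFI27 was at 1788, 3211 and 884 CPM in the controls and 6733, 5699.5 and 3412 CPM in the asthma libraries (log2 fold change 1.16 ± 0.46, edgeR adjusted p = 0.237). In capillary-only cells it was at 3861, 8109.6 and 2403 CPM in the controls and 8726, 7049 and 3710.1 CPM in the asthma libraries, with overlap, and IFIT1 was at 123, 101 and 100.1 CPM in the controls and 402, 167 and 125 CPM in the asthma libraries there. Of 11 antigen presentation genes 0 passed (median 0.21), and CD74, the class II invariant chain, was at 2484, 6793 and 7346 CPM in the controls and 3933, 4156 and 3000.4 CPM in the asthma libraries.

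Over all genes tested 0.82% passed, the share to set beside each list that follows. Among other functions, 1 of 13 haemostasis genes passed (PROCR, lower, median of the list -0.88). The anticoagulant TFPI was at 151, 757 and 593 CPM in the controls and 693, 826 and 863 CPM in the asthma libraries (log2 fold change 0.45 ± 0.44). Of 13 genes of caveolae and lipid handling 1 passed, the lipid phosphatase PLPP1 (138, 201 and 201 CPM in the controls and 64.2, 44.2 and 69.3 CPM in the asthma libraries, log2 fold change -1.87 ± 0.27, edgeR adjusted p = 0.0186), while the caveola coat gene CAVIN2 was at 703, 865 and 603 CPM in the controls and 1878, 2525 and 1504 CPM in the asthma libraries (log2 fold change 1.15 ± 0.31). No gene passed among 20 tested for basement membrane and matrix (median 0.38), 13 for junctions and cytoskeleton (0.12), 9 for shear response and nitric oxide (-0.05), 5 for prostanoids (-0.05), 3 for angiopoietin and apelin (0.18), 9 for hypoxia and glycolysis (-0.71), 15 chaperones (-0.39), 7 ion channel and transport genes (-0.06) and 5 cell cycle genes (0.08). HPGD, part of the choice, was at 835, 3350.3 and 754 CPM in the controls and 3752, 4611 and 3901 CPM in the asthma libraries in members and at 6374, 10930.3 and 6209 CPM in the controls and 5541, 6123 and 6544 CPM in the asthma libraries in capillary-only cells. The highest capillary-only level of HPGD was in control 2, and the other 5 libraries lay between 5541 and 6544 CPM. Of 21 cell cycle genes, CCNB2, BIRC5, RRM2 and AURKB were at 0 in all members, MKI67 had 1 UMI (control 1), and CDK1 was found in 0%, 6.25% and 15.8% of control members and 4.95%, 4.02% and 2.87% of asthma members.

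Of 10 tested genes that the study names in its account of endothelial cells, CPE passed, against 0.82% of all genes tested, and the median was 0.09. That list was chosen on these same samples and is no independent evidence of its direction. Marker lists of other cell types, set beside these results, had medians of -2.61 (8 alveolar type 2 genes tested), -2.62 (2 airway genes), -1.24 (10 fibroblast genes) and 0.13 (5 alveolar type 1 genes), with 0 calls in each. Lists of pericyte, smooth muscle, lymphatic, T and NK, macrophage, neutrophil and mast cell markers had at most 2 genes tested and 0 calls, and mesothelial, B and plasma and red cell markers had none tested. The part of these cells in the differences was not tested beyond the fit without cells led by epithelial or fibroblast genes.

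Immediate-early genes, which cells switch on within minutes of stimulation, had a negative median over all members and a positive one in capillary-only cells. These medians covered 17 and 12 genes, single genes did not all turn, and the difference was not tested. Over all members 17 were tested and 0 called, with a median log2 fold change of -0.56 and 2 of 17 positive. FOS, a subunit of the AP-1 transcription factor, was at 2799.7, 633 and 2914 CPM in controls 1, 2 and 3 and 743, 1459.8 and 1417 CPM in asthma libraries 8, 10 and 11 (log2 fold change -1.18 ± 0.56, edgeR adjusted p = 0.338). Controls 1 and 3 were high and control 2 low, so the groups overlapped. In capillary-only cells 12 were fitted with a median of 1.26 and 10 of 12 positive, where 63.8% of all genes fitted were positive. With library totals as the scale these were 1.003, 9 of 12 and 51.2%. There FOS was at 306, 151 and 300.4 CPM in controls 1, 2 and 3 and 897, 1503 and 1252 CPM in asthma libraries 8, 10 and 11, and every asthma library was above every control (log2 fold change 2.61 ± 0.44).

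ZFP36, which speeds the decay of inflammatory messages, was at 674, 151 and 901 CPM in the controls and 1516, 2194 and 1675 CPM in the asthma libraries in capillary-only cells (log2 fold change 2.07 ± 0.40), and the stress-response gene GADD45B at 368, 201 and 100.1 CPM in the controls and 593, 1161 and 948 CPM in the asthma libraries (log2 fold change 2.19 ± 0.46). Other genes of the list did not follow in CPM, which uses library totals as the scale, unlike the fit with 10 of 12 positive. FOSB was at 429, 50.4 and 901 CPM in the controls and 259, 252 and 421 CPM in the asthma libraries in capillary-only cells, KLF6 at 429, 353 and 1102 CPM in the controls and 565, 541 and 429 CPM in the asthma libraries and NR4A1 at 123, 201 and 100.1 CPM in the controls and 93.3, 89.8 and 50.6 CPM in the asthma libraries, with lower means in asthma. ZFP36 and GADD45B did not separate over all members, where ZFP36 was at 992, 602 and 1336 CPM in the controls and 1183, 1859 and 1176 CPM in the asthma libraries and GADD45B at 1203, 108 and 683 CPM in the controls and 471, 961 and 772 CPM in the asthma libraries. In non-capillary endothelial cells FOS was at 3932, 1348 and 1749 CPM in the controls and 584, 418 and 1830.4 CPM in asthma, and in all other cells at 2752, 2562 and 2842 CPM and 1897, 3213 and 1388 CPM. Capillary-only cells were thus the set of cells in which controls had the least FOS. The control values rest on 11 UMIs of FOS in 26 cells.

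**Figure D5:**
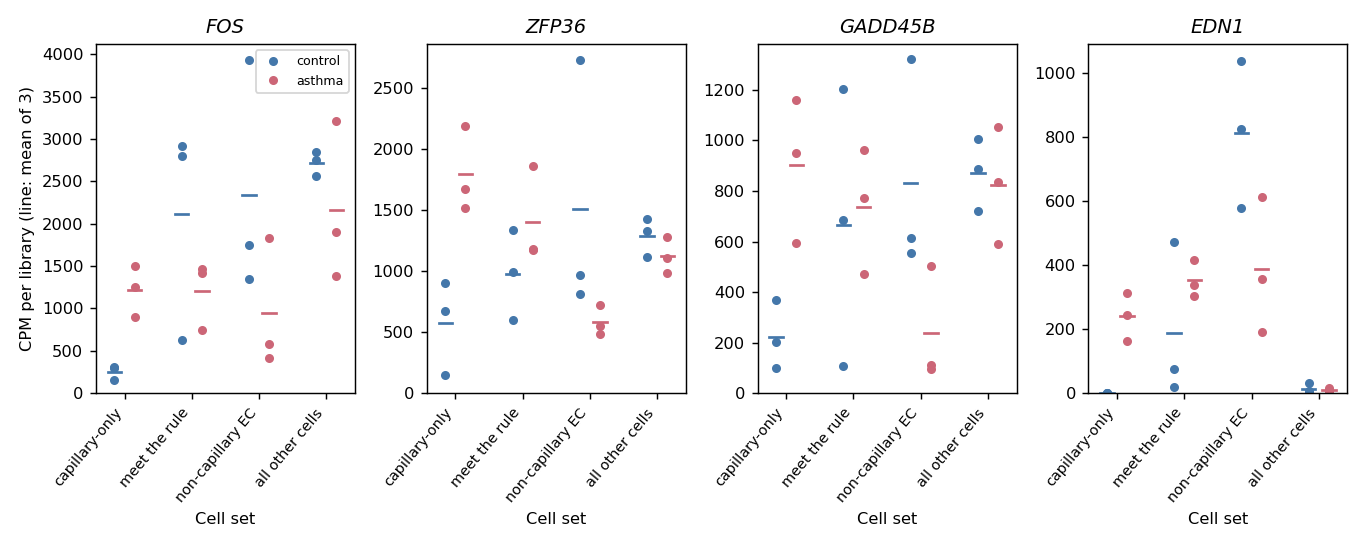
Points give CPM per library for FOS, ZFP36, GADD45B and EDN1 in 4 sets of cells, and lines the mean of 3 libraries. The genes are shown because they were called in capillary-only cells, and EDN1 had no control UMI there, so the separation in that set (a state of 11.7% of genes fitted) follows in part from the choice; in non-capillary endothelial cells the control means are the higher ones.

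With the minimum lowered from 10 to 5 cells a library, since controls 1 and 3 held 9 and 7, the fit of capillary-only cells gave 6 of 3735 genes past the thresholds (0.161%), 5 higher (0.134%) and 1 lower (0.0268%), and no gene shared with the 46. In 11.7% of the genes every asthma library was above every control and in 8.22% below. The 5 were FOS, ZFP36, GADD45B, EDN1 and SMIM7. EDN1 and SMIM7 had no UMI in the control cells and entered the fit through the asthma libraries alone, as did 49 of the genes fitted, so a difference was built into their entry. EDN1 (endothelin-1, a vasoconstrictor) was at 0, 0 and 0 CPM in the controls and 314, 246 and 162 CPM in the asthma libraries, at least 3.72-fold higher in asthma when the floor of 3 UMIs over the control group is used. SMIM7 was at 0, 0 and 0 CPM in the controls and 236, 197 and 199.8 CPM in the asthma libraries, at least 3.23-fold higher by the same floor. Over all members, where the controls had 55 UMIs of EDN1, it was at 19.7, 77.2 and 472 CPM in the controls and 415, 337 and 305 CPM in the asthma libraries and the groups overlapped.

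The 1 lower gene, named after its value was seen, was EMCN (endomucin, a surface sialomucin of capillaries and veins), at 674, 1058 and 0 CPM in controls 1, 2 and 3 and 49.2, 149.7 and 79.9 CPM in asthma libraries 8, 10 and 11 (log2 fold change -2.56 ± 0.51). Control 3 had no UMI of it, so the groups overlapped. Over all members it was at 125, 525 and 10.0 CPM in the controls and 44.5, 99.4 and 78.7 CPM in the asthma libraries, with overlap as well. Since only 1 gene was lower, the 5 next smallest p-values were also read: UHRF2, HLX, HTRA1, MAN2C1 and FAM91A1, none of which passed. HLX, a homeobox gene, was at 552, 655 and 300.4 CPM in the controls and 199.6, 119.7 and 79.9 CPM in the asthma libraries, and the protease HTRA1 at 123, 151 and 100.1 CPM in the controls and 20.7, 8.55 and 10.7 CPM in the asthma libraries. Without 1 library the counts higher and lower were 5 and 0, 1 and 1, and 3 and 1 for controls 1, 2 and 3. They were 0 and 0, 0 and 0, and 1 and 1 without asthma libraries 8, 10 and 11, when at most 320 genes could be fitted.

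ABCC8, the sulfonylurea receptor subunit of ATP-sensitive potassium channels, was examined because earlier results of these data had named it. It was at 6.57, 0 and 10.0 CPM in controls 1, 2 and 3 and 29.6, 64.9 and 109 CPM in asthma libraries 8, 10 and 11 in members, from 2 UMIs in the controls and 158 in asthma. Pooled over libraries this is a ratio of 11.5 (exact 95% interval 3.12 to 95.4, counting error only), and the gene did not pass although the groups did not overlap (edgeR adjusted p = 0.169). Other cells held 0.397 CPM and non-capillary endothelial cells 2.05 CPM. In capillary-only cells it was at 0, 0 and 100.1 CPM in the controls and 28.5, 42.8 and 98.5 CPM in the asthma libraries, and control 3, with 1 UMI, matched the highest asthma library. The pooled ratio there was 2.55 (0.443 to 102), an interval that includes 1. Its usual channel partner KCNJ11 was at 0 in all 6 libraries, KCNJ8 had 3 UMIs in the controls and 10 in asthma, and the other receptor subunit ABCC9 had 0 and 6.

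A test of the difference itself asked whether the asthma effect differed between members and non-capillary endothelial cells of the same monkeys. Control 2 had only 7 non-capillary endothelial cells and did not enter the fit. Of 3464 genes 8 were called (0.231%) with edgeR's interaction term: SLPI, MGP, DCN, CFD, INHBA, PROCR, CPE and the unnamed ENSMFAG00000039235. CPE was among the genes that selected the non-capillary cells, so its place in this list is not a test. PROCR showed an asthma effect that was lower in members than in non-capillary cells, by 3.67 on the log2 scale (edgeR adjusted p = 0.0328). In non-capillary cells PROCR was at 928 and 416 CPM in controls 1 and 3 and at 149.8, 1125 and 859.9 CPM in asthma libraries 8, 10 and 11, so the groups overlapped there. Without asthma library 11 the count was 18, and the fit could not be made without control 1 or 3.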

How the data were processed

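Droplet-based 3′ single-cell RNA libraries of 6 monkeys were used. Alignment to macFas6 was done by the authors in Cell Ranger (2.1.1 in the submitters' processing notes, while the methods and the matrix header each name another version), who deposited raw UMI counts for 28623 genes and all called barcodes, 1 matrix per library, of which 7528 genes have no symbol. Strand handling in counting is not given in the sources used here. From these counts the members were chosen as described above. Doublets were kept, and an alternative removed the cells with the highest Scrublet scores (scanpy 1.11.5). The members, gene lists and tests were chosen with earlier results of these data known.

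Counts of members were summed per library (at least 10 cells, or 5 for capillary-only cells), filtered with filterByExpr, scaled by TMM and tested with edgeR 4.0.16 (quasi-likelihood F test, R 4.3.3) with Benjamini-Hochberg adjustment, with 3 control and 3 asthma libraries and no covariate. Calls required an adjusted p under 0.05 together with a log2 fold change beyond 0.25 in either direction, and the 10 with the largest change in each direction among those with a symbol were named, with members of each list, called ones first. Other list members, DLL4, TFPI and IFIT1 among them, were named after their values were seen. Levels are CPM without TMM factors. The asthma effect in members and in non-capillary endothelial cells was compared by an interaction term with the library as a block. Shares were tested by two-sided exact permutation (scipy 1.17.1). Folds over other cells used CPM + 10. Alternatives were DESeq2 1.42.0, its size factors, no filter, other cell filters, thinning to 1500 UMIs, a Wilcoxon test across cells and leaving out each library. The fit was also run on counts simulated from its own dispersion estimates and a common mean profile. Those counts held no difference in cell make-up between groups, so the run does not bear on that difference. Each monkey gave 1 library, so p-values measure the spread between monkeys and their preparations together.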

Additional observations from a re-analysis of the deposited data

Results flagged for a closer look

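The asthma effect, as a log2 fold change, differed between members and non-capillary endothelial cells for 8 genes by edgeR's interaction term (adjusted p from 0.00105 to 0.0328, control 2 not in the fit). MGP (matrix Gla protein, which inhibits calcification) had a difference of -2.75 (effect in members minus effect in non-capillary cells). It was at 10620.5, 10359.7 and 12872 CPM in the controls and 1519, 1108 and 2151 CPM in the asthma libraries in members, and at 17874 and 21118 CPM in the non-capillary cells of controls 1 and 3 and 10659.9, 11918 and 20958 CPM in those of the asthma libraries. PROCR had a difference of -3.67, with lower values in asthma members and overlapping groups in non-capillary cells, where it was at 928 and 416 CPM in controls 1 and 3 and 149.8, 1125 and 859.9 CPM in asthma. CPE had a difference of -2.99, but it was 1 of the 9 genes that selected the non-capillary cells, which holds its level there high in both groups.

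For 5 others, 1 of the control libraries stood apart in members or the 2 fitted controls were near 0. SLPI, an epithelial protease inhibitor, had a difference of -8.69 and was at 32.9, 262 and 4944 CPM in the controls and 59.3, 73.2 and 156 CPM in the asthma libraries in members, highest in control 3, where SCGB1A1 was also high. DCN had a difference of 8.85 and CFD of 6.71. In members DCN was at 6.57, 9032 and 20.1 CPM in the controls and 1069, 117 and 1162 CPM in the asthma libraries and CFD at 0, 2069 and 40.2 CPM in the controls and 456, 204 and 195 CPM in the asthma libraries, and both peaked in control 2, the library with the highest fibroblast marker sum, which did not enter the fit. INHBA, the activin A subunit, had a difference of -6.81 and was at 499, 124 and 0 CPM in the controls and 0, 0 and 0 CPM in the asthma libraries in members. ENSMFAG00000039235, listed without a symbol, had a difference of -5.45 and was at 9372, 15.4 and 211 CPM in the controls and 428, 793 and 1730.5 CPM in the asthma libraries, highest in control 1, where SFTPC was also high. The part of these few cells of other types in the 8 differences was not tested. With capillary-only cells in place of all members, and a minimum of 5 cells that also brought control 2 back into the fit, 9 genes were called, and of the 8 only CFD was among them.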

How the results depend on the processing

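The share of members among all cells stayed higher in all asthma libraries under each of the 14 alternatives, with differences of 0.616 to 4.91 points for a main value of 4.53 (3.76 to 4.91 without 1 library), except 15.5 points with cells lacking PTPRC as the denominator. The share among endothelial cells did so under all 13, with 38 to 53.4 points without 1 library. No permutation test of 3 against 3 libraries can go below p = 0.1. The difference in median UMIs per member, -130 in the main comparison, was 1049 with at least 3 genes of each kind required and 1027 in capillary-only cells.

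Gene counts moved most. Against 11 higher and 35 lower, there were 0 and 6 with the stricter requirement, where control 3 dropped out with 9 cells (the same with at least 5 cells a library, which kept it), 2 and 2 after thinning, where control 3 also dropped out with 7 cells, 23 and 88 without cells led by epithelial or fibroblast genes, 5 and 1 in capillary-only cells, 212 and 398 with no filter, 49 and 169 with DESeq2 and 4 and 101 by the Wilcoxon test across cells. Without 1 library they ranged from 0 to 17 and from 2 to 85. The 10% mitochondrial limit, doublet removal and DESeq2 size factors kept both counts within 1.5 times. Capillary-only cells gave 3 and 5 with DESeq2, 121 and 2 with no filter, 5 and 5 with library totals as the scale, and 0 to 5 and 0 to 1 without 1 library. Library totals moved their median log2 fold change from 0.28 to 0.02 and kept all 6 calls, and DESeq2 kept 2. With no filter in capillary-only cells the sign turned for PDZK1IP1 (1.28), MPZL2 (1.28), NQO1 (2.39), PROCR (3.92), COL8A1 (3.27), CPE (3.23) and CTSC (5.02), none of them called, and all controls were at 0 UMIs for PROCR and CPE. The cause of these changes was not tested. For the 20 genes named from all members, 159 alternative values kept direction and call, 206 kept the direction without a call and 7 turned, and for the 6 from capillary-only cells these were 22, 26 and 0. The interaction count of 8 was 109 with no filter and 8 to 18 without 1 library.

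The gene test without cells holding UMIs of other types was not run, since 2, 0 and 4 control cells remained, and the interaction could not be fitted without control 1 or 3. No paired analysis was possible because the groups share no replicate numbers. Depth limits the controls: 56 members and 316445 UMIs stand against 660 and 2182464 in asthma.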
